A study of Rattus norvegicus with 57 samples.

Results

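The cytosolic ribosomal proteins form the ribosome of the cytosol together with its rRNAs. Their genes were taken from the array annotation by symbol: every gene with a single symbol made of Rpl or Rps and a number, with Rplp0 and Rpsa, and without the Rps6k kinases and pseudogenes. This gave 48 of 14217 genes with a single symbol, and none was chosen by its measured values. They comprise 29 genes of the large subunit, 13 of the small subunit and 6 paralogs, each read from its probe set of highest mean log2 signal.

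Each of the 57 arrays measured total RNA from the liver of 1 male Han Wistar [Crl:WI(Han)] rat, aged 8 to 10 weeks per the labels, on a 3′ expression array. Rats took methapyrilene, an antihistamine known to injure rat liver, by oral gavage each day at 30 or 80 mg/kg in carboxymethylcellulose, and controls took that vehicle alone. Livers were taken on days 4, 8 and 15, or on day 24, when 14 days of dosing had been followed by 10 days without. Most of the 12 groups held 5 arrays, and 3 of them held 4: the day 24 controls, the day 24 rats of the low dose and the day 4 rats of the high dose. The labels call the samples biological replicates, and the number of arrays limits the precision.

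A ribosome needs 1 copy of almost every one of these proteins, and their genes are usually transcribed together at a high level in all cells. In vertebrates their mRNAs begin with a C followed by a run of pyrimidines, the terminal oligopyrimidine (TOP) tract, through which mTORC1 signalling controls their translation. In the liver, growth and regeneration go with more ribosome production, and hepatocytes need it for the plasma proteins they secrete.

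The starts of 12 members are shown because the TOP tract is the sequence feature by which this family is known, and because the first 4 belong to the bright members with the largest change at 80 mg/kg on day 15, the next 4 to those with the smallest among members with such a window, and the rest to members described below. The windows are from RefSeq on assembly GRCr8, 15 bases before and 15 from the annotated start on, written 5′ to 3′ on the gene's strand in lower case. Capitals mark a C followed by at least 4 further C or T, read from the C nearest to the annotated start among those within 5 bases of it, and as far as it runs inside the window. Pyrimidines before that C stay in lower case, so the whole run can be longer than its capitals, as in Rpl14, Rplp0 and Rps3a.
Rpl14, chr8:129163605-129163634, plus strand: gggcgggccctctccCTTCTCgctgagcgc
Rps15a, chr1:181860270-181860299, minus strand: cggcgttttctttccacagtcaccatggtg
Rps3, chr1:163195762-163195791, minus strand: ttcctttcagcggcgcgcggcagcaagatg
Rpl12, chr3:36661925-36661954, plus strand: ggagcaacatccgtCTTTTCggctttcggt
Rps3a, chr2:173827028-173827057, minus strand: gagttgtacttccgcCCTTTTggctctcag
Rpl41, chr7:1563483-1563512, minus strand: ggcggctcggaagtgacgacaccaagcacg
Rpl27a, chr1:172974558-172974587, plus strand: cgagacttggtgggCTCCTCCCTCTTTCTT
Rpl26, chr10:54109677-54109706, plus strand: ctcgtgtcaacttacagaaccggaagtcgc
Rplp0, chr12:46718376-46718405, minus strand: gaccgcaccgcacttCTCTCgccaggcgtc
Rps6, chr5:106420526-106420555, minus strand: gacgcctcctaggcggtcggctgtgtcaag
Rps27l, chr8:76443643-76443672, plus strand: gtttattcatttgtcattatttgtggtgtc
Rpl7l1, chr9:21695703-21695732, plus strand: agctgcagatgcattgtgggaagcctttaa
Of the 4 with the largest change 2 had a marked tract, and of the 4 with the smallest also 2. The last 2 are the paralogs of Rps27 and Rpl7, and neither window held one.

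Windows of 300 bases, 250 before the start and 50 from it on, were at hand for 41 of the 48 members. The tract began exactly at the annotated start in 11 of 41 windows (26.8%), against 2.63% of all 33469 RefSeq windows of that length. Within 5 bases of the start, on the gene's strand, it began in 20 (48.8%), against 17.0% of all windows. Other letters were searched on both strands: CCGGAAG, the core bound by ETS family factors, was in 10 member windows (24.4% against 8.75%), AAGATGG, the core bound by YY1, in 8 (19.5% against 7.01%) and TATAAA, the TATA box, in 6 (14.6% against 14.2%). These are matches of letters, not sites shown to be bound. Annotated starts can lie some bases from the start used in liver.

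Of the 48 members, 44 lay above the level that a gene needed to be tested, a signal over 17.09 in at least 4 arrays. Those 44 were 27 large subunit genes, 12 small subunit genes and 5 paralogs. Of these, 38 had a mean log2 signal above 9 and are called bright here, with geometric means from 1536 to 6455 in deposited signal units. The 6 tested members below that level were Rpl39, a protein that lines the exit tunnel, and the paralogs Rpl26l1, Rpl39l1, Rpl7l1, Rps27l and Rps4y2. The 4 not tested were Rpl28, Rpl30, Rps13 and the muscle paralog Rpl3l, whose signals ran over 0.650 to 18.5, 0.670 to 13.2, 1.25 to 22.1 and 0.300 to 8.78. Another 36 probe sets list a ribosomal protein gene beside other symbols. They were left out of the members because they name no single gene.

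Array-wide measures moved with the groups too. The median signal of an array was 15.0 to 18.2 in the control and 30 mg/kg groups and 16.8 to 21.1 at 80 mg/kg, with the highest values on day 24 at 80 mg/kg. Results are therefore given on the deposited scale and after each array was moved to the same median (common median). The log2 ratio of 3′ to 5′ actin probe sets, a sign of RNA length, had group medians from 2.10 to 2.40 on days 4 to 15 and from 2.67 to 2.79 on day 24. All 10 of 10 listed hepatocyte markers were at a level to be tested, with summed signals of 35655 to 73463 over all arrays.

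The mRNAs of the cytosolic ribosomal proteins rose together in liver at 80 mg/kg. On the deposited scale the mean log2 signal over the 38 bright members was 11.35 ± 0.051 (SD, n = 5) in controls and 11.79 ± 0.14 (SD, n = 4) at 80 mg/kg on day 4. On day 8 it was 11.37 ± 0.098 in controls and 11.78 ± 0.052 at 80 mg/kg (SD, n = 5 each). On day 15 it was 11.46 ± 0.063 in controls and 12.11 ± 0.14 at 80 mg/kg (SD, n = 5 each). On each of these days the lowest rat at 80 mg/kg lay above the highest control. In signal units these means correspond to 2603, 2654 and 2824 in controls and 3551, 3528 and 4428 at 80 mg/kg on days 4, 8 and 15.

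After 10 days without dosing the groups no longer lay apart on this scale. The mean over the same members was 11.34 ± 0.049 (SD, n = 4) in controls and 11.29 ± 0.14 (SD, n = 5) at 80 mg/kg on day 24, and the groups overlapped. At 30 mg/kg it was 11.57 ± 0.041, 11.53 ± 0.11, 11.66 ± 0.075 (SD, n = 5 each) and 11.37 ± 0.050 (SD, n = 4) on days 4, 8, 15 and 24. All 5 rats lay above all controls at 30 mg/kg on day 4, and all but 1 did on day 15. With arrays at a common median the means at 80 mg/kg were 11.70, 11.64, 12.05 and 11.03, against 11.39, 11.45, 11.54 and 11.34 in controls. On that scale 80 mg/kg overlapped the controls on days 4 and 8, lay above them on day 15 and lay below them on day 24.

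**Figure D1:**
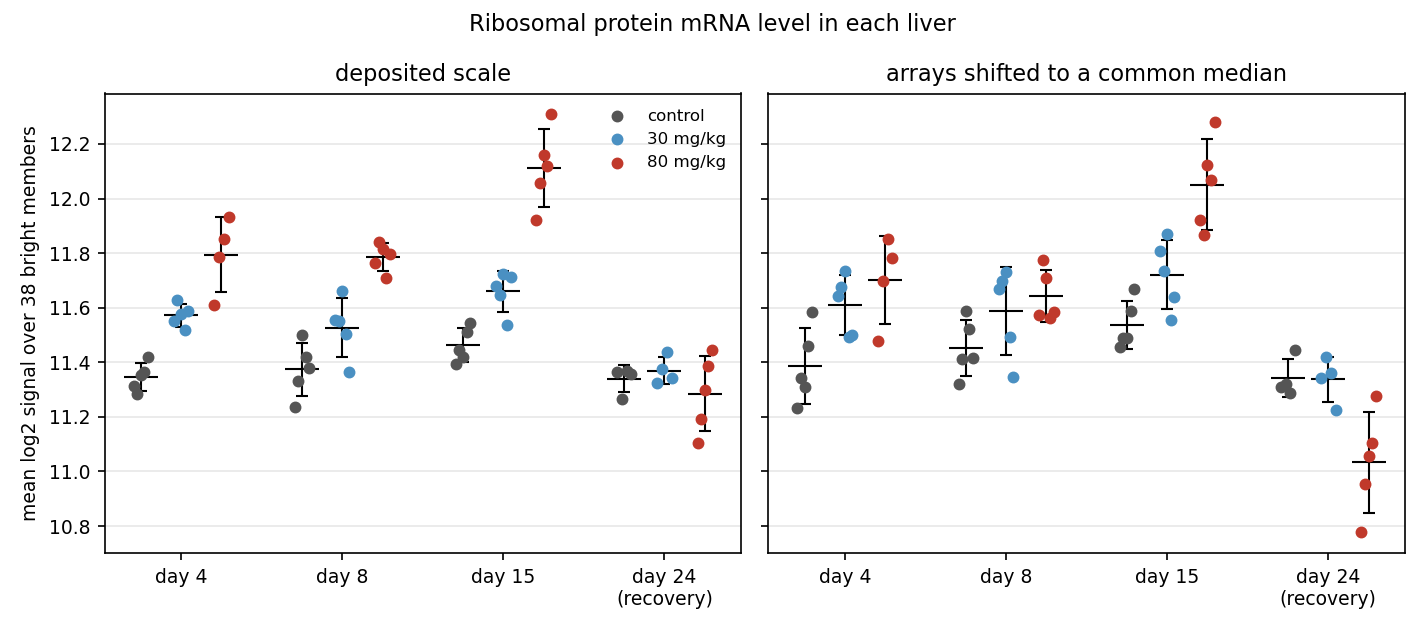
Mean log2 signal over the 38 bright ribosomal protein genes (vertical axis) in each liver (points), by day and dose, with the group mean and SD (bars); left on the deposited scale, right with arrays at a common median. The mean at 80 mg/kg on day 15 is 12.11 against 11.46 in controls on the left, and on day 24 the 80 mg/kg rats lie below the controls on the right only.

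Changes are log2 fold changes ± SE from limma on all 57 arrays, with p-values adjusted by Benjamini-Hochberg over 10725 genes and called below 0.05. On day 4 at 80 mg/kg, 38 of the 44 tested members rose and 0 fell, where 27.5% of all genes were called and 18.3% called up. On day 8, 40 rose and 1 fell, where 50.8% of all genes were called and 34.2% called up. On day 15, 41 rose and 0 fell, where 59.2% were called and 38.8% called up. The median change of the members was 0.45, 0.45 and 0.65, against medians of 0.08, 0.15 and 0.16 for all genes tested. The day 15 median is a 1.57-fold difference in signal. At an unadjusted p under 0.05 the counts were 40 up and 0 down, 41 up and 1 down, and 41 up and 1 down.

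Genes of both subunits took part. On day 15 at 80 mg/kg, 11 of 12 small subunit genes rose with a median of 0.60, 26 of 27 large subunit genes with a median of 0.66, and 4 of 5 paralogs with a median of 0.82. Every treated array lay above every control array for 39 members on day 4, 36 on day 8 and 40 on day 15, where 14.5%, 22.7% and 30.0% of all genes did. The exceptions on day 15 were Rpl37a, Rpl39, Rpl39l1 and Rps29. With arrays at a common median, 30 rose and 0 fell on day 4 (23.7% of all genes called), 22 rose and 1 fell on day 8 (44.5%), and 40 rose and 1 fell on day 15 (54.9%). The members' medians were then 0.32, 0.23 and 0.51, against -0.05, -0.07 and 0.03 for all genes, and their distance from the all-gene median was 0.37, 0.30 and 0.49 on both scales, which a shift of whole arrays leaves alike by construction. With quantile normalization, which can change it, the members' medians were 0.45, 0.68 and 0.88 and the distances 0.41, 0.65 and 0.83. In whole liver a change in the cells present and a change in RNA per cell cannot be told apart.

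**Figure D2:**
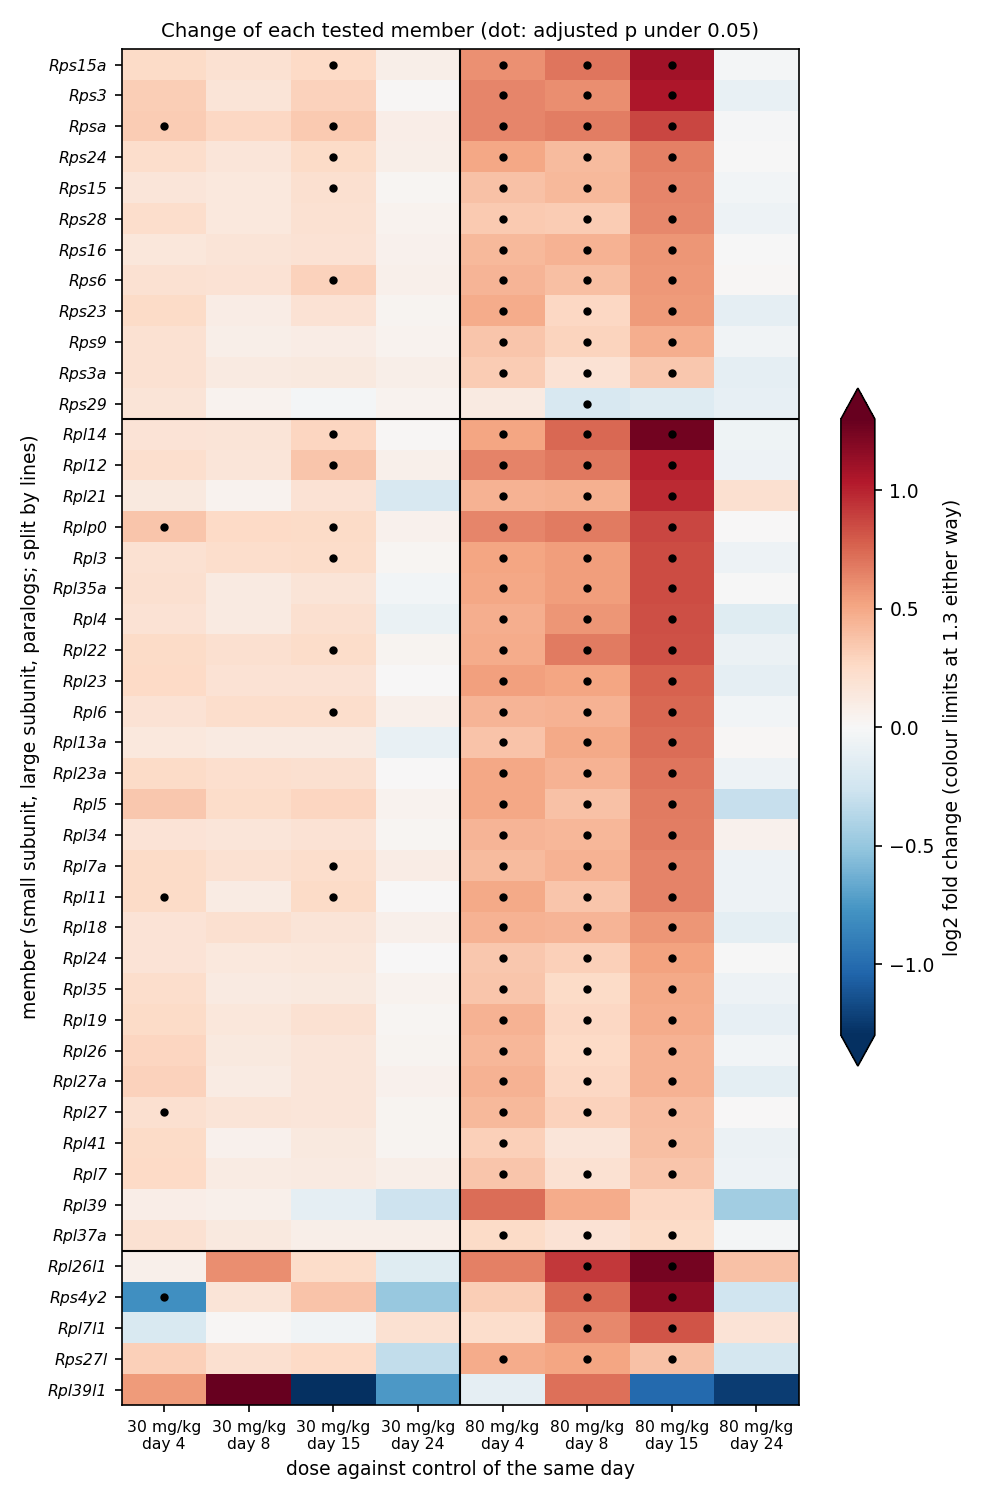
Log2 fold change against the control of the same day (colour) for the 44 tested members (rows, by subunit and then by change at 80 mg/kg on day 15) in the 8 dose-by-day comparisons (columns), with a dot where the adjusted p is under 0.05. Dots fill nearly all of the 80 mg/kg columns of days 4, 8 and 15 and none of day 24, and colour limits hide the larger, uncalled values of Rpl39l1.

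Among the bright members the largest rises were in genes of both subunits. Rpl14, a large subunit protein, had signals of 1240.2, 1277, 1174, 1273 and 1334 in controls on day 15 and 2541, 3016, 3104, 3238 and 3139 at 80 mg/kg. All rats at 80 mg/kg were well above all controls, with a change of 1.25 ± 0.078, adjusted p = 5.02e-19, or 2.38-fold. Its signals at 30 mg/kg on that day, 1511, 1483, 1574, 1419 and 1642, lay between the other groups and overlapped neither. In its start window, printed above, the marked tract begins at the annotated start.

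The earlier days held smaller differences in the same gene. Rpl14 had 1339, 1291, 1168, 1322 and 1426 in controls and 1534, 1801, 1989 and 2219 at 80 mg/kg on day 4 (0.52 ± 0.083, adjusted p = 3.75e-06). On day 8 it had 1244, 1256, 1437, 1284 and 1236 in controls and 2154, 2401, 2330.4, 2009 and 1924 at 80 mg/kg (0.74 ± 0.078, adjusted p = 3.67e-11). The groups were clear of each other on both days.

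Rps15a, of the small subunit, had signals of 2405, 2389, 2289, 2483 and 2538 in controls and 4392, 5114, 5402, 5207 and 5833 at 80 mg/kg on day 15, a change of 1.09 ± 0.07, adjusted p = 1.17e-18. Rps3, which sits at the mRNA entry of the small subunit, had 1893, 1731, 2258, 1611 and 1772 in controls and 3296, 3779, 3919.6, 3955 and 4122 at 80 mg/kg, a change of 1.05 ± 0.093, adjusted p = 6.16e-14. In both genes the groups were clear of each other. Rpl12, at the base of the stalk, had 2319, 2412, 2344, 2400.0 and 2467 in controls and 4129.6, 4510.3, 4887, 4785 and 5632 at 80 mg/kg (0.996 ± 0.078, adjusted p = 1.01e-15). Rpl21, of the large subunit, had 1821, 1489, 1617, 1764 and 1613 in controls and 2982, 3186, 3336, 3172 and 3614 at 80 mg/kg (0.97 ± 0.086, adjusted p = 4.83e-14). These too did not overlap. Neither the Rps15a window nor the Rps3 window has a marked tract, while the Rpl12 window has one.

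Rplp0 is the core of the stalk that recruits elongation factors, and is often used as a reference gene for constant expression. Its signals on day 4 were 2447, 2520.0, 2569.8, 2545 and 2797 in controls, 3225, 3576, 3206, 3111 and 3404 at 30 mg/kg and 3313, 4072, 4198 and 4536 at 80 mg/kg. Both treated groups were above every control. On day 15 they were 2646, 2790.4, 2841, 3040.2 and 2994 in controls and 4540.5, 5123, 5572, 4724 and 6285 at 80 mg/kg. The change at 80 mg/kg was 0.64 ± 0.08, 0.68 ± 0.075 and 0.87 ± 0.075 on days 4, 8 and 15, with adjusted p of 3.97e-08, 1.55e-10 and 3.38e-14.

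Rpsa, a small subunit protein also known as a laminin receptor, had signals of 1943, 1989.9, 1946, 2109 and 2195 in controls and 3238, 3631, 3859.7, 3793 and 4090.1 at 80 mg/kg on day 15, with no overlap (0.87 ± 0.068, adjusted p = 1.21e-15). Its 2 other single-symbol probe sets changed by 1.45 and 1.27 in the same comparison, so the 3 probe sets of this gene have the same sign and differ in size. Rps6, the small subunit protein phosphorylated by the S6 kinases, had 2898, 3083, 3135, 3190.4 and 3426 in controls and 4201, 4470.4, 4832, 4594 and 5221 at 80 mg/kg (0.57 ± 0.065, adjusted p = 1.65e-10). It too rose without overlap.

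Rpl5 and Rpl11 bind the 5S rRNA and, outside the ribosome, Mdm2. Rpl11 had signals of 3028, 3164, 2898, 3454 and 3654 in controls and 4567, 4786, 5271, 5054 and 5685 at 80 mg/kg on day 15 (0.65 ± 0.065, adjusted p = 2.40e-12). Rpl5 had 2986, 3203, 3237, 3260.1 and 3616 and 4321, 4784, 6000.3, 5053 and 6141 (0.68 ± 0.096, adjusted p = 2.59e-08). The treated rats lay above all controls in both genes. Rpl3, close to the peptidyl transferase centre, changed by 0.85 ± 0.072, adjusted p = 1.56e-14, and Rpl4, of the exit tunnel, by 0.84 ± 0.11, adjusted p = 1.49e-09.

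The smallest changes among the bright members were in Rps29, Rpl37a, Rps3a and Rpl7. Rps29, a zinc-binding small subunit protein, had signals of 6473, 7383, 7094, 8003 and 7329.9 in controls and 5541, 6164, 6708, 6035 and 7976 at 80 mg/kg on day 15, which overlap (-0.17 ± 0.084, adjusted p = 0.0764). On day 8 it had 5655, 6021, 7062, 6939.6 and 6524 in controls and 5678, 5425, 5294, 5420.1 and 6026 at 80 mg/kg. It was the 1 member called down on day 8, at -0.21 ± 0.084, adjusted p = 0.0361, and the groups overlapped. That call was lost without the filter (adjusted p = 0.0529), with the actin covariate (adjusted p = 0.133), and without any 1 of control replicates 3, 4 and 5 and 80 mg/kg replicates 2, 3 and 4 (adjusted p from 0.0598 to 0.105). With quantile normalization its change was 0.20 on day 8 and 0.25 on day 15, with adjusted p of 2.91e-06 and 1.49e-08, so its direction depends on the scaling. At a common median it was -0.31 on day 15, adjusted p = 0.00974, called down. Rpl37a, of the large subunit, changed by 0.25 ± 0.076, adjusted p = 0.00425, and by 0.11 at a common median, not called. Rps3a and Rpl7 changed by 0.35 and 0.36, both called. The second probe set of Rpl7, with a geometric mean signal of 33.3, changed by -0.50 in the same comparison.

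Over the 38 bright members the change at 80 mg/kg on day 15 was smaller where the control signal was higher. Pearson's r across members was -0.84 and Spearman's rho -0.78 on day 15, and r was -0.81 on day 8 and -0.56 on day 4. With quantile normalization r was -0.71 on day 15. The points share the same arrays, the change is computed from the same control signal, and genes are not independent replicates, so the values only describe these data. The highest member signal was 8003, where the highest of all values was 12157, and the part of the array's range in this relation was not tested.

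**Figure D3:**
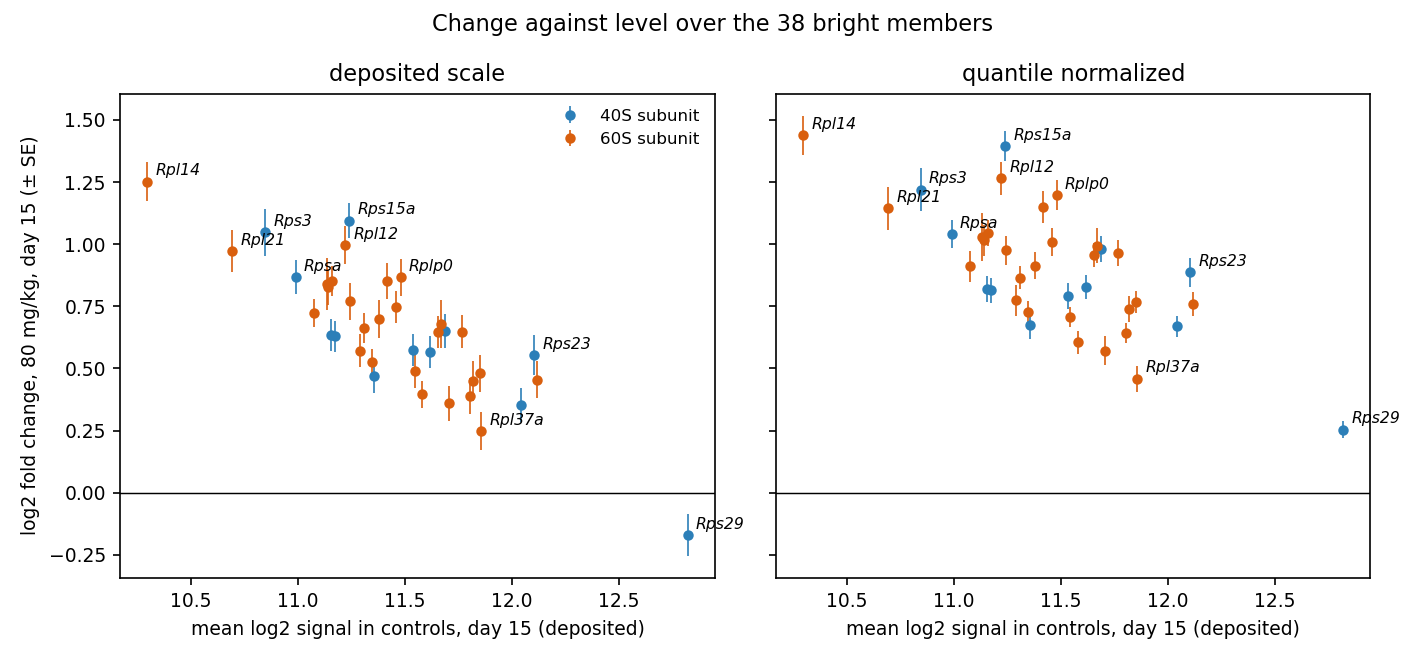
Log2 fold change at 80 mg/kg on day 15 with its SE (vertical axis) against the mean log2 control signal of day 15 (horizontal axis) for the 38 bright members, coloured by subunit; left on the deposited scale, right after quantile normalization. Changes fall from 1.25 for Rpl14 to -0.17 for Rps29 on the left, and from 1.44 to 0.25 on the right.

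The paralogs are given one by one. On day 4 at 80 mg/kg 1 of the 5 tested rose, and on days 8 and 15 4 did. Rps27l, a paralog of Rps27 known as a p53 target, had signals of 124, 117, 104, 109 and 105 in controls and 146, 171, 142 and 166 at 80 mg/kg on day 4, clear of each other (0.48 ± 0.10, adjusted p = 0.000224). On day 15 they were 72.4, 86.2, 84.6, 88.0 and 83.9 and 89.0, 110.3, 99.8, 121 and 124, just clear of each other (0.38 ± 0.095, adjusted p = 0.000486). With quantile normalization the day 15 change was 0.19, adjusted p = 0.0847, and the call was lost. The difference of its change between those days, -0.099 ± 0.14, was not called.

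Rps4y2, a paralog of ribosomal protein S4, had the only fall called at 30 mg/kg. On day 4 its signals were 125, 83.6, 77.9, 104 and 78.1 in controls, 50.8, 49.1, 45.6, 54.9 and 67.7 at 30 mg/kg and 118, 107, 113 and 122 at 80 mg/kg. Every rat at 30 mg/kg was below every control (-0.79 ± 0.15, adjusted p = 0.00737), while 80 mg/kg overlapped the controls (0.32 ± 0.16, adjusted p = 0.149). The call at 30 mg/kg was lost in a limma fit of just the compared groups (adjusted p = 0.119). The controls of day 15, given next, were about as low as the 30 mg/kg rats of day 4. On day 15 the signals were 63.6, 45.8, 70.8, 73.9 and 48.7 in controls and 129, 132, 123, 148 and 129.7 at 80 mg/kg, clear of each other (1.15 ± 0.15, adjusted p = 8.75e-09). On day 8 it rose as well (0.74 ± 0.15, adjusted p = 7.93e-05). All its signals were between 43.7 and 152, and near copies of S4 genes may share its probes.

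Rpl7l1, a paralog of Rpl7, had signals of 236, 303, 239, 208 and 222 in controls and 444, 504, 414, 381 and 385 at 80 mg/kg on day 15 (0.82 ± 0.10, adjusted p = 1.84e-09). Its second probe set changed by 0.66. On day 4 its change of 0.22 ± 0.11 was not called, and the growth between days 4 and 15 was called (0.60 ± 0.15, adjusted p = 0.00252). Rpl7 itself changed by 0.36 on its brighter probe set, and the difference between these genes was not tested. Rpl26l1, a paralog of Rpl26, had 23.6, 24.5, 8.76, 10.6 and 21.0 in controls and 34.1, 37.7, 44.5, 35.9 and 41.2 at 80 mg/kg, near the level at which genes were tested (1.25 ± 0.25, adjusted p = 2.50e-05). It exceeded that level in 43 of 57 arrays, controls among them. Rpl39l1 ranged from 0.36 to 60.1, was above that level in 13 arrays and had a log2 difference of -1.01 ± 1.14, not called.

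**Figure D4:**
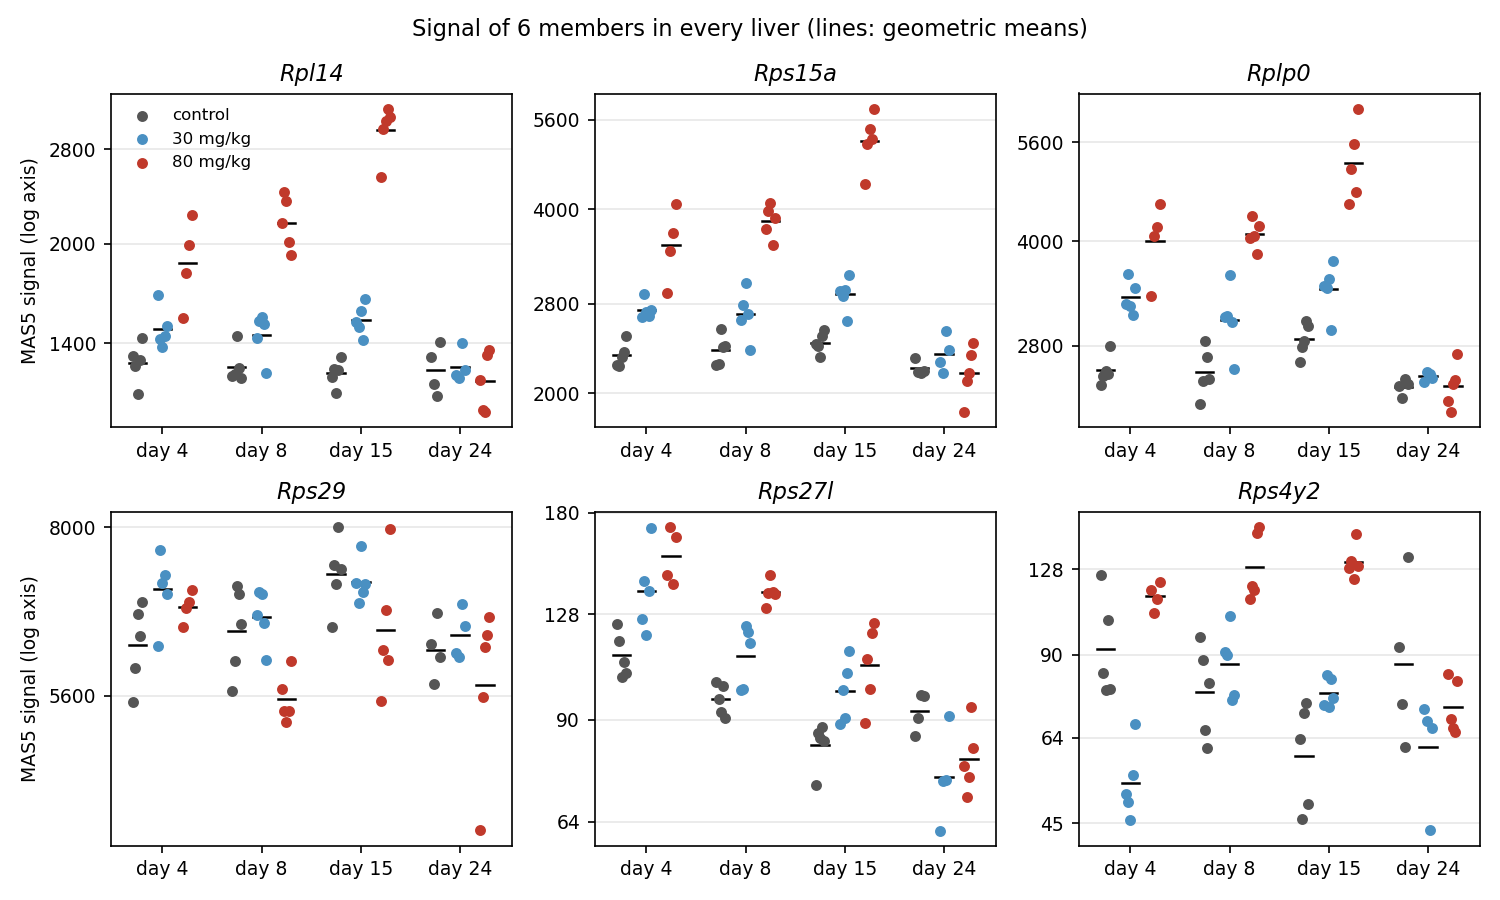
MAS5 signal (vertical log axis) of 6 members in every liver (points), by day and dose, with geometric means (lines). Rpl14, Rps15a and Rplp0 are highest at 80 mg/kg on day 15 and back among the controls on day 24, Rps29 does not follow them, and Rps4y2 is lowest at 30 mg/kg on day 4.

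At 30 mg/kg the shift was small and the same way in nearly all members. On day 4 the medians were 0.22 for the members and 0.01 for all genes, and 42 of 44 members were higher. With quantile normalization the members' median was 0.12 on that day, and its distance from the all-gene median was 0.11 in place of 0.20. Rplp0, Rpsa, Rpl11 and Rpl27 rose and Rps4y2 fell, a count of 5 where 0.783% of all genes were called and 0.531% called up. Rpsa had signals of 1805, 1725, 1918, 1867 and 2007 in controls and 2377, 2415, 2284, 2239 and 2393 at 30 mg/kg on day 4, clear of each other (0.33 ± 0.068, adjusted p = 0.0112). Rplp0, whose signals are given above, changed by 0.36 ± 0.075, adjusted p = 0.0127. Of the 44, 31 had every treated array above every control, where 2.0% of all genes did. At an unadjusted p under 0.05, 37 were up and 1 down, where 13.8% of all genes passed.

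On day 8 at 30 mg/kg all 44 members were higher, with a median of 0.16 against 0.0042 for all genes, but limma called 0, where 0.233% of all genes were called. At an unadjusted p under 0.05, 24 were up and 0 down, where 10.7% of genes passed, and only 1 member had all treated arrays above all controls (1.40% of genes). Rpsa had the smallest adjusted p, at 0.27 ± 0.068, adjusted p = 0.0675. On day 15, 13 rose and 0 fell with a median of 0.19, where 4.60% of all genes were called and 2.71% called up. They were Rpl3, Rpl6, Rpl7a, Rpl11, Rpl12, Rpl14, Rpl22, Rplp0, Rps6, Rps15, Rps15a, Rps24 and Rpsa. Rps6 had 3918, 3832, 4038, 3474 and 4124 at 30 mg/kg, all above the controls of that day (0.30 ± 0.065, adjusted p = 0.00340). Rpl12 had 3077, 2968, 3337, 2817 and 3206, also all above (0.37 ± 0.078, adjusted p = 0.00296). Rpsa had 2652, 2654, 2592, 2288 and 2685 (0.34 ± 0.068, adjusted p = 0.00163), with replicate 4 nearest to the controls. In 15 members every treated array lay above every control, where 3.69% of all genes did.

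These low-dose counts moved with single arrays and with the scaling. On day 15 the count of 13 was 4 without control replicate 1, without control replicate 3 or without 30 mg/kg replicate 5, was 5 without 30 mg/kg replicate 1 or 3, 7 without 30 mg/kg replicate 2, 8 without control replicate 2 or 4, and 21 without 30 mg/kg replicate 4. On day 4 the count of 5 was 2 without control replicate 2 or without 30 mg/kg replicate 2, and 3 without any 1 of control replicates 1, 3 and 4 or 30 mg/kg replicates 3, 4 and 5. At a common median 0 rose and 1 fell on day 4 (0.364% of all genes called), 0 were called on day 8 (0.131%) and 2 rose on day 15 (2.80%). The medians there were 0.21, 0.14 and 0.18, against 0.0083, -0.013 and -0.0053 for all genes. On day 8 the count was 1 without control replicate 3 and 2 without 30 mg/kg replicate 5.

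Both doses were set against the same controls, so their values are given side by side. On day 15 the members' median was 0.19 at 30 mg/kg and 0.65 at 80 mg/kg. The direct comparison of the doses on that day does not use the controls. In it 39 members were higher at 80 mg/kg and 0 lower, with a median of 0.42, where 55.2% of all genes were called and 37.0% called up. Rpl14 differed by 0.98 ± 0.078, adjusted p = 5.55e-15 and Rps15a by 0.83 ± 0.07, adjusted p = 2.68e-14. Those not called were Rps29, Rps27l, Rpl37a, Rpl39 and Rpl39l1. On the common-median scale 31 were higher and 1 lower (49.6% of genes called).

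The change at 80 mg/kg was also compared between day 4 and day 15, and the count of members called depended on the scaling. On the deposited scale the test of that difference called 14 of 44 up and 0 down, where 24.4% of all genes were called and 14.3% called up. Rpl14 was the largest among bright members, with 0.74 ± 0.11, adjusted p = 3.67e-06, followed by Rpl21 with 0.52 ± 0.12, adjusted p = 0.00157 and Rps15a with 0.50 ± 0.10, adjusted p = 0.000221. Others called were Rpl3, Rpl6, Rpl12, Rpl13a, Rpl22, Rpl35a, Rps3, Rps15, Rps28, Rpl7l1 and Rps4y2. For Rps4y2 all control signals, given above, were lower on day 15 than on day 4, which adds to its difference. Its call was lost with the actin covariate (0.62, adjusted p = 0.0653). For Rplp0 the difference was 0.23 ± 0.11, adjusted p = 0.125 and for Rpl27 -0.022 ± 0.08, adjusted p = 0.888. At a common median the count was 7 of 44, a smaller share than the 19.7% of all genes called either way. It was 38 with quantile normalization (22.3% of genes called) and 7 without 80 mg/kg day 4 replicate 2.

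After 10 days without dosing no member was called on the deposited scale at 80 mg/kg, where limma called 10.2% of all genes. The count at an unadjusted p under 0.05 was 1 up and 2 down, where 26.2% of genes passed. The members' median was -0.07 against 0.04 for all genes. Rpl14 had signals of 1332, 1213, 1162 and 1405 in controls and 1230.3, 1105, 1096, 1343 and 1367 at 80 mg/kg, which overlap (-0.060 ± 0.083, adjusted p = 0.686). Rplp0 had 2436, 2343, 2499 and 2456 and 2320.4, 2232, 2454, 2488 and 2723, also overlapping (0.0028 ± 0.08, adjusted p = 0.988). Rpl5 had 3388, 2959.8, 3363 and 3337 in controls and 2275, 2446, 2773, 2792 and 3040.4 at 80 mg/kg, with 4 of 5 treated rats below all controls, and missed the threshold (-0.30 ± 0.10, adjusted p = 0.0502). Without 80 mg/kg replicate 5 limma called 1 member, Rpl5, and it was also called with the stricter filter, the offset and array weights.

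The drop from day 15 to day 24 was itself tested. The 80 mg/kg effect was smaller on day 24 in 41 of 44 members and larger in 0, with a median difference of -0.70, where 42.7% of all genes were called and 26.1% called down. Rps4y2 differed by -1.41 ± 0.23, adjusted p = 1.20e-06, Rpl14 by -1.31 ± 0.11, adjusted p = 5.60e-13 and Rps3 by -1.14 ± 0.14, adjusted p = 1.49e-09. The 3 members not called were Rpl39, Rpl39l1 and Rps29. At a common median the count was also 41 (42.1% of genes called).

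What day 24 showed depended on the scaling. At a common median 37 members fell and 0 rose, with a median of -0.32 against -0.21 for all genes, where 33.8% of all genes were called and 31.3% called down. Rpl5 changed by -0.55 there, adjusted p = 0.00105, and Rpl14 by -0.31, adjusted p = 0.0168. With quantile normalization 1 member, Rpl21, rose (0.29, adjusted p = 0.0415), and 7.20% of genes were called. The distance of the members from the all-gene median was -0.11 on the deposited scale and at a common median and 0.039 with quantile normalization. At 30 mg/kg on day 24 limma called 0 members (0.0932% of genes), with 0 up and 3 down at an unadjusted p under 0.05 and a median of 0.04.

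Rpl39 had higher signals in the controls of day 24 than in those of day 15. It had signals of 18.6, 46.7, 16.8, 37.9 and 27.3 in controls on day 15 and 91.6, 77.9, 92.9 and 91.4 in controls on day 24, and 75.8, 66.4, 71.0 and 79.9 at 30 mg/kg on day 24. All control values on day 24 exceeded all those on day 15. The actin ratio too had higher medians on day 24 than on day 15 in all dose groups, and its part here was not tested. In no comparison of a dose with control was Rpl39 called.

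Members also rose and fell together between rats of the same group. After removing group means, the correlation of 2 bright members over 57 arrays had a median of 0.75, and it ran from -0.11 to 0.94, against a median of 0.0051 for pairs of all genes. At a common median it was 0.86, against 0.069. The pairs of all genes were not matched to the members by signal level, so the gap is not shown to be particular to them. Members share arrays and scaling, so their counts are not counts of independent results. The 36 probe sets that list several symbols, none of them a member's, included 33 bright ones, with medians of 0.47, 0.42, 0.61 and -0.06 at 80 mg/kg on days 4, 8, 15 and 24. On the deposited scale all 33 were higher than controls on days 4 and 15, and 31 were on day 8. At a common median 31, 24, 31 and 1 were higher on days 4, 8, 15 and 24, and the day 24 median was -0.31.

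Members with and without a tract matched at the annotated start had changes of like size. Among bright members with a window, the 9 with the tract exactly at the annotated start had a median of 0.66 at 80 mg/kg on day 15 (0.35 to 1.25), and the 23 without had 0.65 (0.39 to 1.09). Within 5 bases, the medians were 0.66 for 16 with it and 0.66 for 16 without. On day 4 they were 0.48 and 0.45. No test was made of these. Members without a match can still have a tract, since the match depends on where the annotated start lies. The Rps15a and Rps3 windows, counted as without, hold such a run further before the start than the 5 bases searched. The values therefore do not compare members that have a TOP tract with members that lack it. The members lie on 15 chromosomes, with at most 8 on 1 of them, as far as 46 of them have a chromosome in RefSeq.

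Other genes of ribosome production and translation were described from lists set for this purpose. Their counts stand beside all-gene shares of 18.3%, 34.2% and 38.8% called up at 80 mg/kg on days 4, 8 and 15 and 10.2% called either way on day 24. The shares called either way at a common median on these 4 days were 23.7%, 44.5%, 54.9% and 33.8%. Rack1, a small subunit protein whose symbol is not of the Rps type, was the 1 gene of its list that was measured, and it changed by 1.13 ± 0.065, adjusted p = 3.79e-20 on day 15 and -0.081 ± 0.069 on day 24. It was called up at 30 mg/kg on day 15 too (0.36 ± 0.065, adjusted p = 0.000449). Of 71 genes of rRNA transcription and ribosome assembly, 40, 55 and 64 rose at 80 mg/kg on days 4, 8 and 15 and 0, 2 and 2 fell, with medians of 0.42, 0.68 and 0.98. On day 24, 1 rose and 0 fell. After the shift to a common median 23, 43 and 59 rose and 0, 3 and 2 fell on the dosing days, and 0 rose and 21 fell on day 24. On day 15 at 80 mg/kg Gar1, of the H/ACA snoRNPs that modify rRNA, changed by 1.99 ± 0.19, adjusted p = 7.83e-13. Nop56, of the box C/D snoRNPs, changed by 1.77 ± 0.16, adjusted p = 8.72e-14 in the same comparison. At 30 mg/kg the list's median was -0.05 on day 4, where the ribosomal proteins' was 0.22. Limma called 0 of its genes at that dose on each of the 4 days. The all-gene shares called on days 4, 8, 15 and 24 were 0.783%, 0.233%, 4.60% and 0.0932%. A count of 0 of 71 is near the share on days 4, 8 and 24.

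Of 17 elongation factors and other genes known for TOP mRNAs, 13, 14 and 14 rose at 80 mg/kg on days 4, 8 and 15 and 0 fell, with medians of 0.37, 0.58 and 0.78. On the common-median scale 7, 12 and 14 rose and 0, 1 and 1 fell, and on day 24, where 0 were called on the deposited scale, 11 fell. At 30 mg/kg on day 15, 4 rose and 0 fell with a median of 0.16, where 4.60% of all genes were called and 2.71% called up. After the shift to a common median 1 rose and 0 fell at that dose and day (2.80% of genes called). Eef1g, a subunit of elongation factor 1, changed by 1.30 ± 0.096, adjusted p = 1.26e-16 at 80 mg/kg and 0.41 ± 0.096, adjusted p = 0.00744 at 30 mg/kg. Of 26 other initiation factors, 17, 19 and 22 rose and 1 fell on each day, with medians of 0.24, 0.45 and 0.70. With arrays at a common median 8, 13 and 18 rose and 2, 2 and 1 fell, and 17 fell on day 24 against 1 on the deposited scale. Eif4ebp1, a repressor of cap-dependent translation that mTORC1 phosphorylates, changed by 1.46 ± 0.11, adjusted p = 9.74e-16 at 80 mg/kg on day 15.

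The 73 mitochondrial ribosomal proteins, which form the ribosome of the mitochondrion, had smaller medians. At 80 mg/kg 26, 33 and 43 rose on days 4, 8 and 15 and 0, 7 and 6 fell, with medians of 0.17, 0.11 and 0.32. The day 8 counts, 33 up and 7 down of 73, stand beside 50.8% of all genes called either way. On day 24, 0 rose and 18 fell, with a median of -0.14. On day 15 at 80 mg/kg Mrps31 changed by 1.36 ± 0.12, adjusted p = 1.16e-13 and Mrps21 by -0.53 ± 0.062, adjusted p = 1.92e-10. With arrays at a common median 8, 13 and 35 rose and 6, 25 and 7 fell on days 4, 8 and 15, so that most calls of day 8 were falls, and on day 24 0 rose and 64 fell. Their medians were then 0.042, -0.12, 0.19 and -0.40. The difference between the 2 families was not tested.

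**Figure D5:**
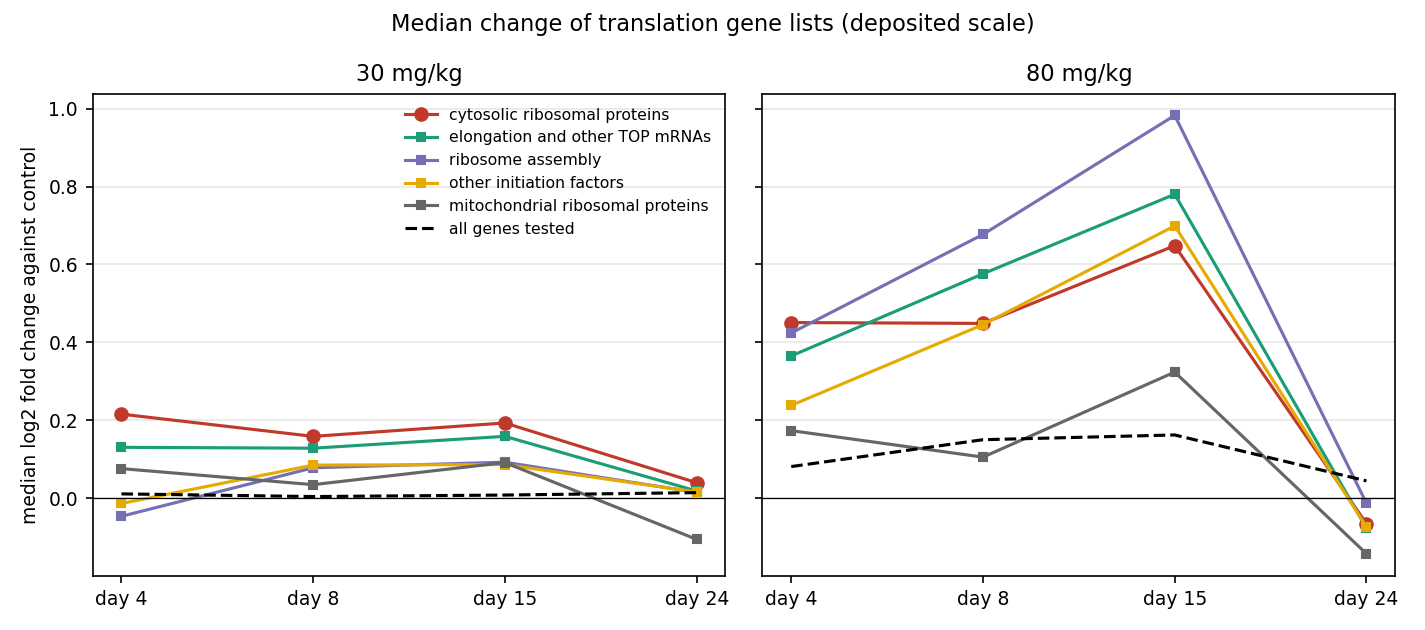
Median log2 fold change against control on the deposited scale (vertical axis) by day (horizontal axis) for the cytosolic ribosomal proteins, 4 lists of related genes and all genes tested, left at 30 and right at 80 mg/kg. At 80 mg/kg on day 15 ribosome assembly genes have the highest median, 0.98, the cytosolic ribosomal proteins 0.65 and the mitochondrial 0.32, and all lie between -0.14 and 0.04 on day 24.

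Markers of cell types moved in the same comparisons, and their part in the ribosomal protein result was not tested. On day 15 all 8 tested of 10 listed markers of biliary and progenitor cells rose at 80 mg/kg. Their summed signal was 1219 to 1832 against 314 to 407 in controls. Among these genes Cldn4 and Cldn7 were above 17.09 in no control array of any day. They passed the filter only through treated arrays, so their rise is no separate evidence. The 8 genes of dividing cells summed to 1025 to 1306 against 447 to 591, with 7 called up, and the 11 macrophage genes to 4554 to 5792 against 3714 to 4285, with 7 up and 1 down. The 10 hepatocyte genes summed to 39639 to 59319 against 55023 to 72810, with 1 up and 7 down. The median of the hepatocyte genes was -0.38 on the deposited scale and 0.030 with quantile normalization. Of 10 stellate and matrix genes 4 rose and 1 fell (1468 to 2405 against 1803 to 2222). Of 7 endothelial genes 0 rose and 1 fell (1609.9 to 1858 against 1698 to 2244). Of 3 erythroid genes 3 fell (1141 to 2411 against 2349 to 5471). Of the 12 listed lymphocyte genes only 4 were tested, and 0 were called (38.9 to 61.6 against 47.6 to 54.9). Of all genes 59.2% were called that day and 38.8% called up. At a common median, where 54.9% of genes were called, 1 stellate and matrix gene rose and 2 fell. Endothelial genes were then 0 up and 4 down, lymphocyte genes 0 and 2, hepatocyte genes 1 and 9, and macrophage genes 5 and 1. The biliary, dividing cell and erythroid counts were unchanged.

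On day 4 the dividing cell genes summed to 1260.2 to 1606 at 80 mg/kg against 465 to 790.1, all 8 called up, while 0 hepatocyte genes were called. On day 24, where 10.2% of all genes were called, 0 dividing cell, hepatocyte, lymphocyte and erythroid genes were called. On that day 5 of 8 biliary, 8 of 11 macrophage, 5 of 10 stellate and matrix and 3 of 7 endothelial genes were up and 0 of them down. The counts at a common median were 4, 4, 1 and 0 up, and 7 of 10 hepatocyte genes were down (33.8% of all genes called).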

How the data were processed

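Gene expression was measured in 57 rat livers on Affymetrix Rat Genome 230 2.0 arrays. The deposited values are MAS5 signals, an intensity per probe set on a linear scale. MAS5 is named in the submitters' processing notes, with its version and the annotation build not given in the sources used here. Each array has a trimmed mean of 99.992 (2% left out at each end), a scaling by the authors that fixes this mean and not the median of an array. Signals were used as deposited, log2 transformed with no offset. Of 31099 probe sets, 57 of them array controls left out of the genes, 20832 had 1 symbol, 436 several and 9831 none.

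Probe sets with a signal over 17.09 (the table's median value) on 4 or more arrays were kept (18677). The probe set of highest mean stood for a gene, giving 10725 genes. Limma 3.58.1 in R 4.3.3 fitted the 12 group means to all arrays (lmFit, eBayes with a variance trend), with two-sided moderated tests and Benjamini-Hochberg adjustment over all genes. The steps were tested on simulated data. Values after ± are SE for changes and SD for group values. No 2 arrays held identical values. Nothing in the labels ties same-numbered rats across groups, and of 54 pairs of the same number 0 had a correlation of deviations above 0.1 (-0.084 to 0.095). Tables were made with pandas 2.3.3 and numpy 2.4.6, figures with matplotlib 3.10.9.

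Members were matched to RefSeq by Entrez ID (46 of 48). Start windows came from RefSeq on GRCr8. Closely related copies and pseudogenes of ribosomal protein genes may add to a probe set's signal. The named genes were the paralogs and their parents, Rplp0, Rpsa, Rps6, Rpl5 and Rpl11, up to 6 largest called changes each way per dose comparison (4 in other comparisons), and up to 3 called genes each way of a context list; Rpl37a, Rps3a and Rpl4 were named after their values were seen. The members, lists, tests and alternatives were chosen with earlier results of these data known. Alternatives were a common median, quantile normalization, testing all genes without a filter, a stricter filter (probe set means over percentile 60), an offset of 3.31 (percentile 20), averaging the probe sets of a gene, a fit with no trend, array weights, a fit of just the compared groups, the replicate number as a block, the actin ratio as a covariate, 2 day 24 arrays of high actin ratio left out, and each array left out in turn.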

Additional observations from a re-analysis of the deposited data

Results flagged for a closer look

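A rat stood apart from the others of its group in 13 of 180 checks, each by a gap that chance gives in about 1 in 20. A check took 1 gene, or the mean over bright members, in 1 of the 12 groups. Genes share arrays, so the checks are not independent. In controls on day 4, Rps3 was 1769.8 in replicate 5 (others 1545 to 1583) and Rps6 3106 in replicate 3 (others 2923 to 2974). In controls on day 8, Rpl14 was 1437 in replicate 3 (others 1236 to 1284) and Rpl26l1 5.17 in replicate 2 (others at or below 20.3). On day 15, Rps27l was 72.4 in control replicate 1 (others 83.9 to 88.0) and Rpsa 2288 in 30 mg/kg replicate 4 (others 2592 to 2685).

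In controls on day 24, Rps15a was 2285 in replicate 2 (others 2158 to 2179). Replicate 3 was low in Rpl5 at 2959.8 (others 3337 to 3388), in Rpl39 at 77.9 (others 91.4 to 92.9) and in the mean over bright members at a log2 of 11.27 (others 11.36 to 11.37). Rps4y2 was 43.7 in 30 mg/kg replicate 3 of day 24 (others 66.5 to 71.9). At 80 mg/kg on day 24, Rpl7l1 was 213 in replicate 5 (others 267 to 285) and Rpl39 31.4 in replicate 3 (others 67.6 to 83.1).

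The 80 mg/kg effect differed between days by a test of the difference in 14 members (day 15 minus day 4) and 41 members (day 24 minus day 15). The doses lay on opposite sides of the control mean in every rat for 3 members, and that difference was not tested. For Rpl7l1 on day 4 the log2 differences from control were -0.20 at 30 mg/kg and 0.22 at 80 mg/kg. For Rps4y2 on day 4 they were -0.79 and 0.32, and for Rpl21 on day 24 -0.21 and 0.21.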

How the results depend on the processing

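Besides leaving out each array in turn, 12 other settings were run. Of 1731 alternative values of 80 named results, 1631 kept their direction and their side of the threshold. At 80 mg/kg, 23 members were called on day 8 at a common median. On day 24 the count was 37 at a common median and 1 each with quantile normalization, the stricter filter, the offset and array weights. For 30 mg/kg on day 4 it was 1 at a common median, where the 1 was a fall and not a rise, 3 each with quantile normalization, no filter, no trend and the actin covariate, 9 each with the stricter filter and with averaged probe sets, and 0 with just the compared groups. For 30 mg/kg on day 8 it was 1 with quantile normalization, 3 with array weights and 1 with the actin covariate. On day 15 it was 2, 20 and 23 with the common median, quantile normalization and array weights. The growth from day 4 to day 15 was called in 7 at a common median and 38 with quantile normalization. The cause of these differences was not tested.

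Of 54 same-numbered pairs 0 had a correlation of deviations above 0.1. That correlation is over all genes tested, so it cannot show whether the members' level goes with the replicate number. The mean over bright members was 11.10, 11.19, 11.30, 11.39 and 11.44 in replicates 1 to 5 at 80 mg/kg on day 24. At 30 mg/kg on day 8 it was 11.56, 11.55, 11.66, 11.50 and 11.36. A link to the replicate number was not tested. With the replicate block the count at 30 mg/kg on day 4 was 11.

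Leaving out 1 array gave counts of 0 to 1 at 80 mg/kg on day 24, 2 to 6, 0 to 2 and 4 to 21 at 30 mg/kg on days 4, 8 and 15, and 7 to 19 for the growth from day 4 to day 15. At 80 mg/kg on days 4, 8 and 15 it gave 37 to 39, 39 to 41 and 41 to 42.

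The values that reversed were those of Rpl39l1 at 80 mg/kg on day 4 with array weights (0.22), with the actin covariate (0.14) and among fits leaving out 1 array (-0.77 to 0.46), and on day 8 among such fits (-0.11 to 1.52). Others were Rps29 on day 8 with quantile normalization (0.20), Rpl7 on day 8 at a common median (-0.020) and on day 15 with averaged probe sets (-0.070), and on day 24 Rpl14 with quantile normalization (0.0045) and Rpl21 at a common median (-0.043). Precision is limited by 4 or 5 arrays a group, and detection calls per probe set were not used here.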
